A study of Homo sapiens with 4 samples.

Results

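Aminoacyl-tRNA synthetases are the enzymes that join each amino acid to its tRNA. The 36 genes described here were chosen by name from the deposited table of 56809 genes. They comprise 20 genes of cytosolic enzymes and 16 genes of mitochondrial enzymes, the latter with names ending in 2. All 36 names matched a row, and all 36 passed the filter on low counts that left 17885 genes for testing.

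The study measured poly(A) RNA by RNA-seq in NCI-H929, an established human multiple myeloma line, here expressing the nuclease Cas9. One group of 2 libraries came from cells given a doxycycline-inducible BCL7A knockout (KO) construct. The other group of 2 libraries came from control cells, which the treatment protocol describes as given a control construct and the titles call wild type. Per the labels' protocols, both groups went through 3 days of puromycin selection and then 24 h of doxycycline at 0.5 ug/ml. The protein BCL7A belongs to the BAF complexes, which remodel chromatin. Whether the cells were a pool or a clone is not stated, nor is it stated that libraries of one group were grown as separate cultures. The p-values below thus speak for the variation among these 4 libraries alone, some or all of which may be technical.

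Each cell runs protein synthesis in the cytosol and, separately, in the mitochondria. Nuclear genes encode the synthetases of both compartments. In the cytosol, 8 of the enzymes (for Asp, Glu and Pro, Ile, Lys, Leu, Met, Gln and Arg) are held together in the multisynthetase complex on the scaffold proteins AIMP1, AIMP2 and EEF1E1. When tRNA stays uncharged, the kinase GCN2 raises the transcription factor ATF4, which is known to induce many cytosolic synthetase genes. Plasma cells and myeloma cells secrete large amounts of immunoglobulin and depend on a high rate of protein synthesis.

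Libraries held 17567202 to 40799624 counts, and both KO libraries were deeper than both control libraries. BCL7A itself was at 1.31 and 1.19 CPM (counts scaled to library size with TMM factors) in the KO libraries and at 42.9 and 45.7 CPM in the control libraries. The groups differed far beyond the targeted gene. Of all genes tested, 76.2% passed an adjusted p of 0.05, with 36.4% higher and 39.8% lower in the KO libraries. Among the 9537 genes tested with a mean of at least 10 CPM, 85.8% passed, with 54.2% higher and 31.7% lower. The immunoglobulin delta gene IGHD was at 0 counts in both KO libraries and at 4662 and 4703 CPM in the control libraries, so a difference between cultures and the knockout cannot be told apart here. FGFR3 and NSD2, the genes of the 4;14 translocation for which NCI-H929 is known, were expressed in both groups (FGFR3 at 213 and 219 CPM in KO, 75.7 and 80.2 CPM in control). Of the same list of genes that mark the clone, the alpha heavy chain genes were low in both groups. IGHA1 was at 4.16 and 4.17 CPM in KO and at 1.40 and 1.94 CPM in control. IGHA2 was at 0.911 and 1.19 CPM against 4.81 and 3.38 CPM. The light chain gene IGKC was at 3324 and 3295 CPM against 1459 and 1518 CPM. The identity of the cells was not tested. All 10 plasma cell markers were higher in the KO libraries (summed level 12037 to 12050 CPM in KO, 6769 to 6825 CPM in control). Of 10 B cell markers, 8 were tested, of which 7 were lower and 1 was higher (summed level 42.6 to 44.7 CPM in KO, 559 to 570 CPM in control). CD22 of that list had 0 counts in both KO libraries. Marker lists of T and NK, epithelial, stromal, erythroid and myeloid cells each summed to at most 15.0 CPM in KO and at most 70.9 CPM in control. Of these lists' tested genes, 3 of 4, 2 of 4, 2 of 2, 1 of 2 and 1 of 3 were lower, in that order, while 1 of the 4 epithelial and 2 of the 3 myeloid genes were higher, and CD3D, KRT19 and MPO were at 0 in all 4 libraries. Among the epithelial genes, EPCAM had 0 counts in both KO libraries and 993 and 1207 counts in control, and KRT18 went the other way, with 220 and 248 counts in KO against 52 and 26. The part of these differences in the results below was not tested. In bulk RNA, fewer cells of one kind and less RNA per cell cannot be told apart.

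Cytosolic synthetase genes were mostly higher in the BCL7A KO libraries, and mitochondrial ones were divided. Of the 20 cytosolic genes, 18 rose, none fell and 2 did not pass the test. Of the 16 mitochondrial genes, 8 rose, 3 fell and 5 did not pass. A rise or fall here means a higher or lower level in KO than in control with an adjusted p under 0.05 in edgeR's quasi-likelihood test over all genes. Of all genes tested, 76.2% were called, 36.4% as higher and 39.8% as lower, and of the genes of at least 10 CPM, 85.8% were called, 54.2% as higher and 31.7% as lower. The share of mitochondrial genes that rose, 8 of 16, was thus near the latter background, and that of cytosolic genes, 18 of 20, above it. Neither background was matched to the sets in level. In control, the median level was 257 CPM over cytosolic and 26.4 CPM over mitochondrial genes, so compartment and level go together here. The part of level in this contrast was not tested. At an unadjusted p under 0.05 the count of cytosolic genes lower in KO was also 0, and DESeq2 and limma-voom called 0 as well. With upper-quartile scaling, which shifts all genes by -0.13 on the log2 scale, 2 cytosolic genes, MARS and WARS, were called lower.

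The median log2 fold change (KO over control) was 0.72 over the cytosolic genes and 0.13 over the mitochondrial genes. The mitochondrial median was -0.0078 with upper-quartile factors, 0.068 with a stricter filter on low counts and 0.21 with no filter, so its sign depended on the scaling. With TMM factors the median was -0.06 over all genes tested and 0.19 over the genes of at least 10 CPM. The latter value was exceeded by 17 of 20 cytosolic and 7 of 16 mitochondrial genes. Summed over its members, the cytosolic set took 9077 and 9065 CPM in the KO libraries and 6081 and 5945 CPM in the control libraries, a ratio of 1.51. The mitochondrial set took 641 and 655 CPM against 545 and 520 CPM, a ratio of 1.22. Both sums were thus higher in both KO libraries than in either control library. Much of the mitochondrial sum and of its rise lay in IARS2 and TARS2. Their means were 178 and 126 CPM in KO against 140 and 67.0 CPM in control. The gap between the medians was 0.60, and it lay between 0.57 and 0.63 with 1 library left out. Scalings and filters that shift all genes alike cancel in this gap and do not test it. Members share their libraries and are not replicates, so no test was made of this gap.

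**Figure D1:**
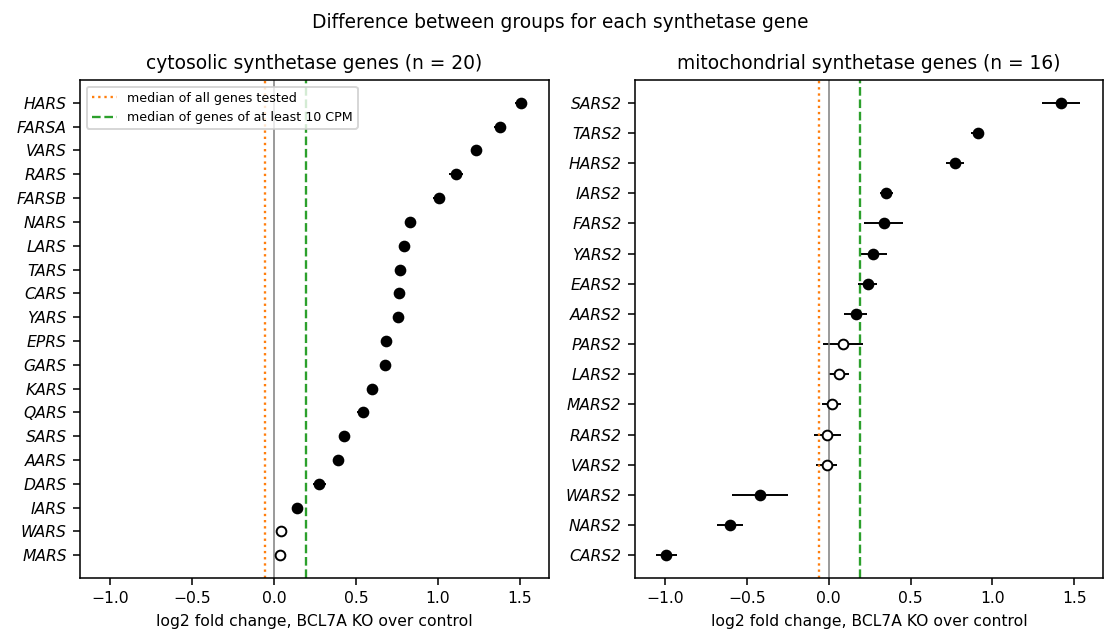
Log2 fold change (BCL7A KO over control, x axis) of each of the 20 cytosolic (left) and 16 mitochondrial (right) synthetase genes, as points with standard errors, filled where the adjusted p was under 0.05. The dotted line is the median of all genes tested (-0.06) and the dashed line that of genes of at least 10 CPM (0.19). Cytosolic genes lie between 0.03 and 1.51, and mitochondrial genes between -0.99 and 1.42.

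Among the cytosolic enzymes, HARS, which charges tRNA with histidine, rose most. HARS (ENSG00000170445, chr5:140673904-140691862, minus strand) was at 190 and 189 CPM in the KO libraries and at 64.5 and 68.1 CPM in the control libraries. The groups lay far apart, with a 2.85-fold difference (log2 fold change 1.51, SE 0.04, adjusted p = 5.35e-24). Both subunits of phenylalanyl-tRNA synthetase, an enzyme built from FARSA and FARSB chains, rose at least 2-fold. FARSA (chromosome 19) was at 208 and 200 CPM in KO and at 79.5 and 77.6 CPM in control, a log2 fold change of 1.38 (SE 0.04). FARSB (chromosome 2) was at 182 and 184 CPM against 94.4 and 88.3 CPM, a log2 fold change of 1.00 (SE 0.04). The KO and control values were far apart in both subunits.

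VARS, the valine enzyme, which associates with translation elongation factor eEF1, was at 525 and 529 CPM in the KO libraries and at 227 and 222 CPM in the control libraries. This was a 2.35-fold difference (log2 fold change 1.23, SE 0.03, adjusted p = 7.26e-25), the smallest p of the 36 genes. RARS, the arginine enzyme, was at 151 and 156 CPM in KO and at 75.6 and 66.7 CPM in control, a 2.16-fold difference. These 5 genes (HARS, FARSA, VARS, RARS and FARSB) were the cytosolic members at least 2-fold higher, 5 of 20, where 9.47% of all genes tested and 9.42% of the genes of at least 10 CPM met that limit.

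At the other end, MARS and WARS did not pass the test. MARS, the methionine enzyme that also serves initiation, was at 394 and 386 CPM in KO and at 385 and 377 CPM in control (log2 fold change 0.03, SE 0.03, adjusted p = 0.253). WARS, the tryptophan enzyme, known also as an interferon-induced gene, was at 610 and 609 CPM in KO and at 589 and 596 CPM in control (log2 fold change 0.04, SE 0.02, adjusted p = 0.114). In both genes the KO values lay above the control values by a small margin (1.02-fold in MARS, 1.03-fold in WARS), and with upper-quartile factors the sign turned (log2 fold changes of -0.10 and -0.09). Of 13 genes of the interferon gamma type list, 11 were tested, of which 7 rose and 3 fell. The shares over all genes tested were 36.4% higher and 39.8% lower (54.2% and 31.7% at 10 CPM or more). STAT2, a transcription factor of that response, was at 251 and 253 CPM in KO and at 136 and 132 CPM in control. The 3 that fell, GBP1, GBP4 and GBP5, are interferon-induced GTPase genes with at most 3.05 CPM in any library. GBP2 of the same family rose, at 2.51 and 2.22 CPM in KO against 1.14 and 1.04 CPM in control. IRF9, a partner of STAT2, did not pass, at 128 and 124 CPM against 125 and 127 CPM.

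IARS (isoleucine), DARS (aspartate), AARS (alanine) and SARS (serine) rose by less than 1.4-fold. IARS was at 688 and 686 CPM in KO and at 636 and 610 CPM in control, a log2 fold change of 0.14 (SE 0.03) that did not pass with upper-quartile factors (0.0079, adjusted p = 0.788). DARS was at 105 CPM in both KO libraries and at 88.5 and 84.5 CPM in control. AARS was at 699 and 696 CPM against 536 and 527 CPM, and SARS at 420 and 419 CPM against 305 and 318 CPM. DARS, AARS and SARS kept their calls under each of the 14 alternatives, with log2 fold changes of 0.14 to 0.36, 0.26 to 0.48 and 0.29 to 0.51.

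The remaining 9 cytosolic genes rose 1.46- to 1.78-fold. EPRS, a single chain that charges both glutamate and proline tRNAs, had the highest CPM of all members in both groups, at 1146 and 1134 CPM in KO and 733 and 687 CPM in control. GARS (glycine) and KARS (lysine) each supply both compartments from 1 gene. GARS was at 697 and 699 CPM in KO and at 442 and 432 CPM in control, and KARS at 158 and 162 CPM against 108 and 104 CPM. Without GARS and KARS, 16 of the other 18 cytosolic genes rose. QARS, the glutamine enzyme, was at 189 and 186 CPM against 135 and 123 CPM. NARS, the asparagine enzyme, was at 887 and 897 CPM in KO and at 503 and 499.8 CPM in control (log2 fold change 0.83, SE 0.02). CARS, the cysteine enzyme, was at 258 and 260 CPM against 155 and 151 CPM (log2 fold change 0.76, SE 0.03). LARS and TARS are given below with the other genes of chromosome 5.

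**Figure D2:**
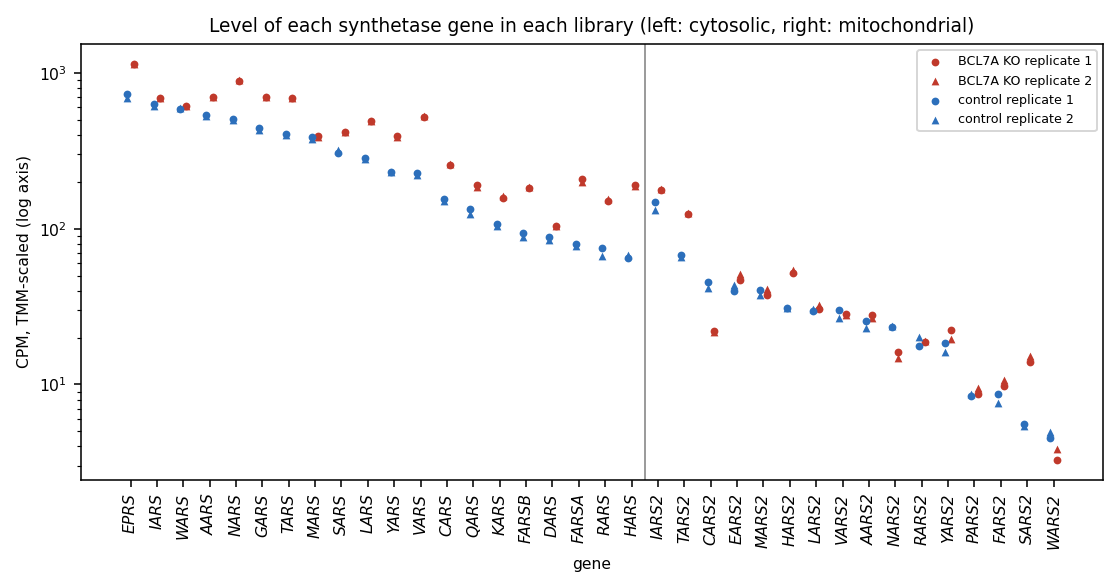
Level of each of the 36 synthetase genes in each of the 4 libraries, in TMM-scaled CPM on a log axis, with genes ordered by their control level within cytosolic (left) and mitochondrial (right) enzymes. Circles are replicate 1 and triangles replicate 2 of each group. The KO values lie above the control values in each of the 20 cytosolic genes, by a small margin in MARS and WARS whose sign turns with upper-quartile factors, and on both sides of them among mitochondrial genes.

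Per length, cytosolic genes lay above mitochondrial genes at the median in both groups. Levels were set per kb of each gene's longest protein-coding transcript in GENCODE release 29. In the control libraries the median was 65.5 CPM per kb over cytosolic genes and 8.74 CPM per kb over mitochondrial genes. In the KO libraries these medians were 122 and 8.47 CPM per kb. WARS had the highest level per kb in control (191 CPM per kb) and ranked 6 in KO (197 CPM per kb), where NARS led with 288 CPM per kb and GARS followed with 265. HARS, the member with the highest cytosolic fold change, had the lowest cytosolic level per kb in control (19.0) and stood at 54.1 in KO. IARS2 had the highest mitochondrial level per kb in both groups, 39.4 in control and 50.1 in KO, and WARS2 the lowest, 1.69 and 1.27.

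Among the mitochondrial enzymes, SARS2 (serine) rose most and CARS2 (cysteine) fell most. SARS2 (ENSG00000104835, chr19:38915266-38930896, minus strand) was at 14.04 and 15.21 CPM in KO and at 5.54 and 5.41 CPM in control, 2.67-fold higher (log2 fold change 1.42, SE 0.12, adjusted p = 7.69e-12). MRPS12, a mitochondrial ribosomal protein gene that overlaps SARS2 on the other strand by 349 bases, was also higher, at 42.7 and 43.5 CPM against 22.6 CPM in both control libraries. CARS2 (ENSG00000134905, chr13:110641412-110713603, minus strand) was at 22.0 and 21.8 CPM in KO and at 45.4 and 41.8 CPM in control, 1.99-fold lower (adjusted p = 1.91e-14, log2 fold change -0.99 with an SE of 0.06). Its overlapping neighbour ING1 was lower too, at 8.46 and 8.04 CPM against 21.5 and 23.4 CPM. Without a stated strand setting of the counting, overlapping genes cannot be fully separated, and 16 of the 36 members overlap another tested gene. AC011455.2, which was not tested, overlaps SARS2 on the same strand by 15493 bases and had 0 counts in each library. It matches SARS2 at 100% identity over 72.6% of the transcript, so reads from that part cannot be told apart by sequence.

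TARS2 (threonine) was at 125 and 127 CPM in KO and at 68.0 and 66.1 CPM in control, 1.88-fold higher (log2 fold change 0.91, SE 0.04). HARS2 (histidine), described below with HARS, was 1.71-fold higher. IARS2 (isoleucine) was at 177 and 180 CPM against 148 and 132 CPM, 1.28-fold higher. These 3 genes and SARS2 kept their calls under each of the 14 alternatives. The other 4 mitochondrial genes that rose, EARS2 (glutamate), FARS2 (phenylalanine), YARS2 (tyrosine) and AARS2 (alanine), had log2 fold changes of 0.16 to 0.34. EARS2 was at 47.0 and 51.5 CPM in KO and at 39.5 and 43.8 CPM in control. FARS2, a single chain unlike the cytosolic enzyme, was at 9.80 and 10.7 CPM against 8.64 and 7.66 CPM. AARS2 was at 27.7 and 26.7 CPM against 25.6 and 23.1 CPM, and YARS2 at 22.3 and 19.5 CPM against 18.4 and 16.3 CPM. In each of these 4 genes both KO values lay above both control values, by a margin near or under the gap between libraries of 1 group. The calls of FARS2, YARS2 and AARS2 were lost without control replicate 2, where 5 rather than 8 mitochondrial genes rose. DESeq2 also called 5, and upper-quartile scaling called 4. Over the 14 alternatives, AARS2 lost its call in 8, FARS2 in 6, YARS2 in 5 and EARS2 in 1.

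NARS2 (asparagine) fell, at 16.1 and 14.8 CPM in KO against 23.2 and 23.6 CPM in control (log2 fold change -0.60, SE 0.08, adjusted p = 9.59e-08). WARS2 (tryptophan), the member with the lowest counts (88 to 142 per library), was at 3.27 and 3.84 CPM in KO and at 4.55 and 4.96 CPM in control. Its call (log2 fold change -0.42, SE 0.17, adjusted p = 0.0291) was lost without control replicate 2 (adjusted p = 0.11), without KO replicate 1 (adjusted p = 0.253), with DESeq2 (adjusted p = 0.18) and without a filter (adjusted p = 0.115). The 5 mitochondrial genes that did not pass were PARS2 (proline), LARS2 (leucine), MARS2 (methionine), RARS2 (arginine) and VARS2 (valine), with log2 fold changes between -0.01 and 0.09. LARS2 was at 30.7 and 32.5 CPM in KO and at 29.8 and 30.6 CPM in control. RARS2 was at 18.7 and 19.0 CPM against 17.7 and 20.1 CPM, and VARS2 at 28.1 CPM in both KO libraries against 30.2 and 26.7 CPM. In MARS2, RARS2 and VARS2 the KO and control values overlapped. The groups did not overlap in the other 13 mitochondrial genes and in any of the 20 cytosolic genes, which compares with 87.4% of all genes tested and 92.4% of those of at least 10 CPM.

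To take scaling between libraries out of the comparison, each cytosolic gene was set over the mitochondrial gene for the same amino acid within each library. The 17 pairs cover 16 cytosolic and 16 mitochondrial genes, since EPRS pairs with EARS2 and PARS2 and both FARSA and FARSB pair with FARS2. The log2 ratio was higher in both KO libraries than in either control library in 13 pairs, lower in 3 and overlapping in 1. The share of other gene pairs that separate the groups was not computed; of single genes, 87.4% of all tested and 92.4% of those of at least 10 CPM did not overlap, so separation alone marks no pair. Its difference between groups had a median of 0.60 and ranged from -0.91 to 1.73. With 2 libraries against 2, an exact permutation test cannot go below p = 0.333, so no p is given for single pairs.

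The cysteine pair moved furthest. CARS had 11.7 and 11.9 times the counts of CARS2 in the KO libraries and 3.40 and 3.62 times in the control libraries. For asparagine, NARS had 55.0 and 60.8 times the counts of NARS2 in KO and 21.7 and 21.2 times in control. In both pairs the cytosolic gene rose and the mitochondrial gene fell. The 3 pairs with a lower ratio in KO were for serine, isoleucine and threonine. SARS had 29.9 and 27.5 times the counts of SARS2 in KO against 55.1 and 58.8 times in control. For threonine the ratio was 5.48 and 5.45 against 5.999 and 6.06, so both of its genes rose by nearly the same factor. The methionine pair overlapped between the groups, at 10.4 and 9.35 against 9.52 and 9.98.

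**Figure D3:**
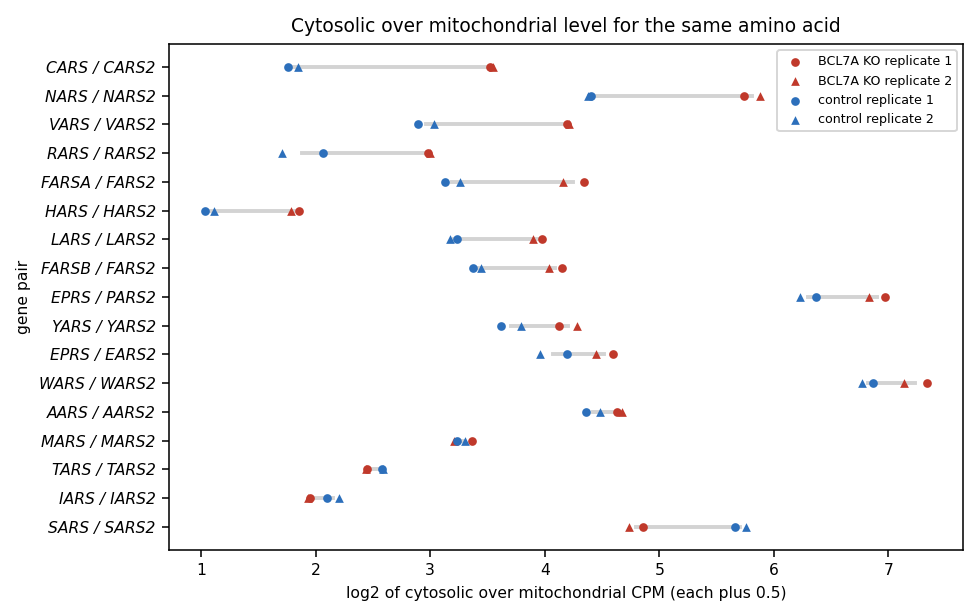
Log2 of the cytosolic over the mitochondrial CPM (each plus 0.5, x axis) for 17 gene pairs in each of the 4 libraries (red KO, blue control; circles replicate 1, triangles replicate 2), with a grey bar between the group means. In 13 pairs both KO values lie to the right of both control values, most for CARS over CARS2 (difference 1.73). They lie to the left for TARS, IARS and SARS over their partners.

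By structural class, the cytosolic enzymes did not divide by direction. Of 9 cytosolic class I genes 7 rose, and of 10 cytosolic class II genes all 10 rose, with median log2 fold changes of 0.76 and 0.72. EPRS holds both folds and was left out of this count. For these and the following counts, 54.2% of the genes of at least 10 CPM were called higher and 31.7% lower (36.4% and 39.8% of all genes tested). Among mitochondrial genes, 3 of 9 class I genes rose and 2 fell (median 0.02), while 5 of 7 class II genes rose and 1 fell (median 0.34). Within the multisynthetase complex, 7 of 8 synthetase genes rose, with MARS the exception (median 0.57). Outside the complex, 11 of 12 cytosolic genes rose, with WARS the exception (median 0.76). The 3 scaffold genes rose as well. AIMP1 was at 89.99 and 89.1 CPM in KO and at 62.8 and 65.2 CPM in control, and AIMP2 at 31.8 and 30.6 CPM against 18.1 and 17.5 CPM. EEF1E1 was at 42.6 and 43.9 CPM against 37.2 CPM in both control libraries.

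ATF4, which induces synthetase genes through composite C/EBP-ATF elements, was slightly higher in the KO libraries, at 683 and 680 CPM against 580 and 590 CPM (log2 fold change 0.22, SE 0.02). Promoter windows of RefSeq (GRCh38.p14; 250 bases before to 50 after the start site) were found for 30 of the 36 members; AARS2, DARS, LARS, VARS, VARS2 and YARS had no entry. These windows were searched on both strands for the letters TGATGNAAN, the core of such an element. A match was present in 7 of 16 cytosolic genes with a window (43.8%), in 1 of 14 mitochondrial genes (7.14%) and in 1215 of all 27305 genes of the table (4.45%). The matches are shown because this was the one motif searched and its share differed between the compartments. Capitals mark the 9 matched letters, read 5′ to 3′ along the gene's own strand.

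AARS (chr16:70289676-70289704, minus strand): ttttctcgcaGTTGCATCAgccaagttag
CARS (chr11:3057408-3057436, minus strand): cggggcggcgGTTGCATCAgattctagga
GARS (chr7:30594834-30594862, plus strand): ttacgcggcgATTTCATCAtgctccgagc
IARS (chr9:92293693-92293721, minus strand): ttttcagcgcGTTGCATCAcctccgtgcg
MARS (chr12:57488053-57488081, plus strand): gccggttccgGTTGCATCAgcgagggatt
NARS (chr18:57621804-57621832, minus strand): ctacgctctcTGATGCAACgccggaatcg
TARS (chr5:33440956-33440984, plus strand): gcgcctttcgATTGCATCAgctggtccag
YARS2 (chr12:32756076-32756104, minus strand): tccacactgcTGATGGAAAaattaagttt

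In AARS, CARS, IARS and MARS the same 9 letters, GTTGCATCA, are the reverse complement of the motif, and NARS carries the motif in the gene's own direction. The matches of CARS, IARS, MARS, NARS and TARS begin at -3, -14, -5, 14 and 1 relative to the start site, that of GARS at -34, and those of AARS and YARS2 at -188 and -197. GARS, CARS and TARS each have 2 promoter windows, of which 1 held a match. A match is a run of letters and was not tested as a binding site. Levels of change overlapped between genes with and without a match. Cytosolic genes with a match had a median log2 fold change of 0.68 (range 0.03 to 0.83), and those with a window and no match had a median of 0.68 (range 0.04 to 1.51).

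Of the 13 cytosolic genes listed here as ATF4 targets, 11 rose, with a median log2 fold change of 0.68. Of the 7 cytosolic genes outside that listing (DARS, FARSA, FARSB, HARS, KARS, QARS and RARS), all 7 rose, with a median of 1.00. For the counts of this paragraph, 54.2% of the genes of at least 10 CPM were called higher and 31.7% lower (36.4% and 39.8% of all genes tested). The ATF4 response list beyond the synthetases also holds ATF4 itself and upstream kinase genes, so it is not a list of targets alone. Of its 25 genes, 17 rose and 6 fell, with a median of 0.42. The member with the smallest p was EIF2AK4, which encodes GCN2, the kinase that senses uncharged tRNA. EIF2AK4 was at 61.9 and 64.9 CPM in the KO libraries and at 335 CPM in both control libraries. This was 5.28-fold lower, with a log2 fold change of -2.40 (SE 0.03) and an adjusted p of 1.39e-29. TRIB3, a feedback inhibitor of ATF4, was at 55.2 and 54.8 CPM against 180 and 191 CPM. SLC7A5, an importer of large neutral amino acids, went the other way, at 1490 and 1491 CPM against 731 and 753 CPM. MTHFD2, a mitochondrial folate enzyme, was at 562 and 553 CPM against 250 and 258 CPM. DDIT3, the stress transcription factor CHOP, overlaps MARS on the other strand by 982 bases and was lower, at 33.6 and 33.1 CPM against 84.0 and 87.0 CPM. ARHGAP9, which overlaps MARS on the other strand by 13370 bases, was higher, at 41.4 and 41.9 CPM against 19.3 and 19.0 CPM.

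By position, 5 members lie on chromosome 5, and all 5 rose. The median log2 fold change of the 428 genes of at least 10 CPM on that chromosome was 0.74, against 0.19 over all such genes. LARS (leucine, chr5:146113038-146182660) was at 489 CPM in both KO libraries and at 285 and 281 CPM in control, a log2 fold change of 0.79. TARS (threonine, chr5:33440696-33469539) was at 686 and 690 CPM against 408 and 400 CPM, a log2 fold change of 0.77. LARS, TARS and HARS2 thus lay 0.03 to 0.06 above their chromosome's median. RARS (chr5:168486445-168519299) lay 0.37 above it and HARS 0.77 above it. The 16 cytosolic genes on other chromosomes had a median of 0.64, and 14 of them rose. Over all chromosomes, 54.2% of the genes of at least 10 CPM were called higher.

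Against the genes of its own chromosome, each of the 20 cytosolic genes lay above the median, by 0.38 at the median of these differences. For WARS (0.0087), DARS (0.02) and MARS (0.03) this margin was no larger than the gene's own SE. For the 16 mitochondrial genes, 8 lay above, with a median difference of -0.0042. VARS (chromosome 6), SARS2 and FARSA (chromosome 19), GARS (chromosome 7), NARS (chromosome 18) and FARSB (chromosome 2) stood, like HARS, 0.75 to 1.18 above their chromosomes. GARS rose on a chromosome whose median was -0.21. On chromosome 1, which carries 7 members, the median was 0.38. There EPRS, YARS, SARS and TARS2 lay above it. IARS2, PARS2 and WARS2 lay below it. YARS was at 396 and 389 CPM in KO and at 231 and 232 CPM in control, and PARS2 at 8.66 and 9.45 CPM against 8.38 and 8.65 CPM.

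**Figure D4:**
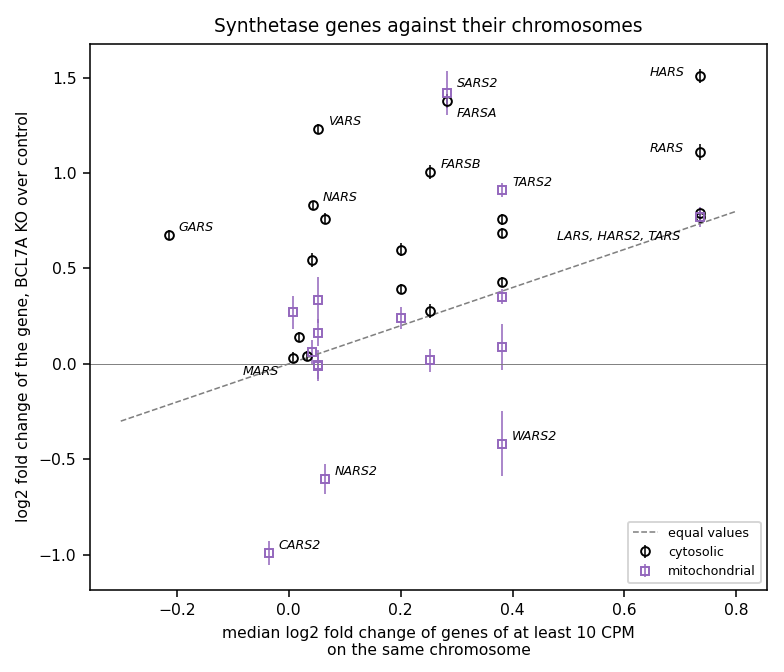
Log2 fold change of each synthetase gene (y axis, with standard errors) against the median log2 fold change of genes of at least 10 CPM on its chromosome (x axis), with circles for cytosolic and squares for mitochondrial genes and a dashed line of equal values. All 20 cytosolic genes lie above the line, and the chromosome 5 genes LARS, TARS and HARS2 lie within 0.06 of it.

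HARS and HARS2 are neighbours transcribed away from each other. Their RefSeq start sites lie 85 bases apart on chromosome 5, and the annotated genes of GENCODE overlap by 437 bases. The stretch from one start site to the other (chr5:140691370-140691455, GRCh38.p14, plus strand, 5′ to 3′) is shown because both genes start from it; no part of it is capitalised.

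HARS-HARS2: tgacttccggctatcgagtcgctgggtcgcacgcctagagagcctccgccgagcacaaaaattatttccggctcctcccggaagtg

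HARS2 (chr5:140691426-140699318, plus strand) was at 52.0 and 54.2 CPM in KO and at 31.1 and 31.2 CPM in control (log2 fold change 0.77, SE 0.05). Both genes rose, but not by the same factor. HARS had 3.64 and 3.48 times the counts of HARS2 in the KO libraries and 2.07 and 2.18 times in the control libraries. WDR55, which overlaps HARS, and ZMAT2, which overlaps HARS2, were also higher, at 86.8 and 85.7 CPM against 35.1 and 38.1 CPM and at 137 and 140 CPM against 76.6 and 74.2 CPM.

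Among the partners of the mitochondrial enzymes, 3 of 5 rose and 1 fell. Mitochondria make glutaminyl-tRNA with an amidotransferase whose subunits moved apart. GATB was at 19.2 and 20.1 CPM against 13.2 and 11.9 CPM and rose, while GATC was at 56.3 and 57.1 CPM against 82.7 and 82.2 CPM and fell. The subunit gene QRSL1 did not pass, at 31.4 and 30.9 CPM against 29.9 and 30.1 CPM. MTFMT, which formylates the initiator tRNA, was at 16.03 and 15.5 CPM against 12.2 and 13.2 CPM. Of 10 mitochondrial translation factor genes, 7 rose and 3 fell (median 0.32). For both lists, the shares among genes of at least 10 CPM were 54.2% higher and 31.7% lower (36.4% and 39.8% of all genes tested). TUFM, the factor that carries charged tRNA to the mitochondrial ribosome, was at 251 and 247 CPM against 149 and 153 CPM. GFM2 was at 103 and 107 CPM against 52.6 and 47.9 CPM, MTIF2 rose with a log2 fold change of 0.76 (SE 0.05), and C12orf65, a release factor gene, fell with one of -0.70 (SE 0.06).

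The cytosolic acceptor of charged tRNA, eEF1, was mixed, with 2 of 4 subunit genes higher and 1 lower. Among genes of at least 10 CPM, 54.2% were called higher and 31.7% lower. EEF1A1 was at 13459 and 13448 CPM in KO and at 8499 and 8550 CPM in control, and EEF1B2 at 482 and 471 CPM against 320 and 336 CPM. EEF1D fell, at 101 and 99.3 CPM against 179 and 178 CPM, and EEF1G did not pass (log2 fold change -0.02, SE 0.02). EEF1A1 has many near-identical pseudogenes, so its counts are uncertain. Genes that remove mischarged or stalled tRNA were mixed too. PTRH2, a peptidyl-tRNA hydrolase, and AARSD1, an editing factor, rose with log2 fold changes of 0.89 and 0.51. DTD1, a D-aminoacyl-tRNA deacylase, fell with one of -0.64, and DTD2 and ANKRD16 did not pass (0.06 and 0.22). Of 3 further genes around tRNA charging, TARSL2 (0.21) and SEPSECS (0.29) rose and PSTK did not pass (0.31).

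Upstream of charging, 16 of 22 genes of tRNA processing and export rose and 4 fell (median log2 fold change 0.43). RTCB, the tRNA ligase, was at 171 and 169 CPM against 61.3 and 62.1 CPM. RPP25 and POP1, subunits of RNase P, were at 80.6 and 83.7 CPM against 25.9 and 26.7 CPM and at 43.1 and 43.7 CPM against 14.1 and 15.4 CPM. ELAC2, which trims the tail of tRNA precursors, was at 131 and 132 CPM against 65.5 and 69.8 CPM. RNA polymerase III, which transcribes tRNA genes, and its factors had 15 of 23 genes higher and 4 lower (median 0.33). Both counts stand beside 54.2% higher and 31.7% lower among genes of at least 10 CPM (36.4% and 39.8% of all genes tested). Neither list was tested against these shares. GTF3C1 and BDP1 rose with log2 fold changes of 0.65 (SE 0.03) and 0.74 (SE 0.04), and POLR3G with 1.71 (SE 0.10). GTF3C4 fell with -0.76 (SE 0.04). The tRNAs themselves are not measured in poly(A) libraries.

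**Figure D5:**
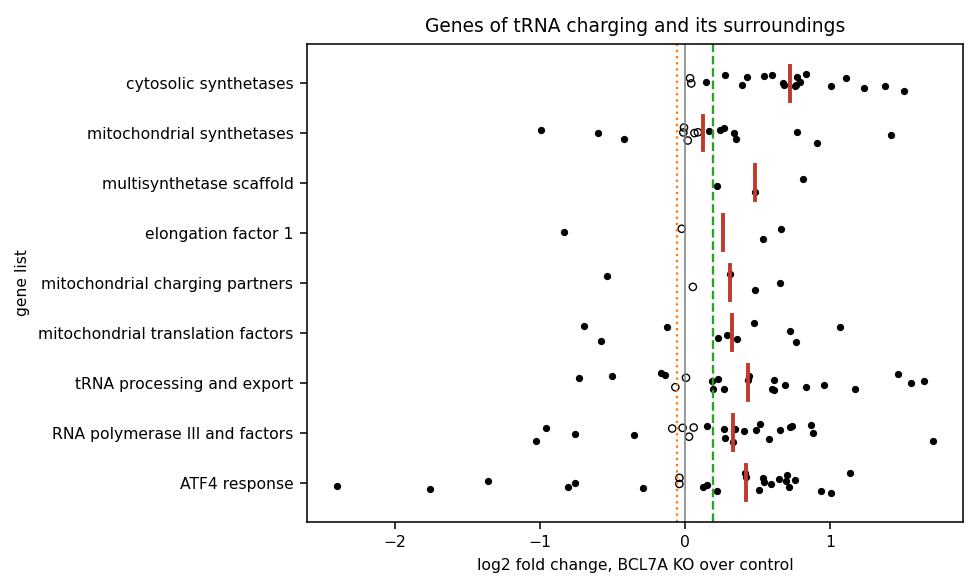
Log2 fold change (BCL7A KO over control, x axis) of the genes of 9 lists around tRNA charging, one point per tested gene, filled where the adjusted p was under 0.05, with a red bar at each list's median. The dotted and dashed lines mark the medians of all genes tested (-0.06) and of genes of at least 10 CPM (0.19). The cytosolic synthetases have the highest of the 9 medians (0.72) and the mitochondrial synthetases the lowest (0.13).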

How the data were processed

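The values deposited by the authors are estimated counts, 1 row a gene. The submitters' processing notes name Salmon 0.12 and GRCh38. The annotation, the summing of transcripts to genes and the strand setting were not given in the sources used here. The deposited values are whole, so none was rounded. The 92 rows of ERCC spike-in sequences (0 to 5 counts a library) were left out. All 56809 gene names occur in GENCODE release 29, which gave coordinates (GRCh38). Counts were filtered with filterByExpr (17885 genes left), scaled by TMM and tested with edgeR 4.0.16 (glmQLFit, robust, no covariates) with Benjamini-Hochberg adjustment over all genes tested and a threshold of 0.05. SE is the absolute log2 fold change over the square root of F. Ratios of 2 genes used log2 of CPM plus 0.5. The members and gene lists were chosen with earlier results of these data known. All 36 members could be named; of longer lists, up to 4 genes by smallest p. ATF4, DDIT3, IRF9, GBP1, GBP2, GBP4, GBP5, EPCAM, KRT18, IGHA1 and IGHA2 were named outside that rule. ARHGAP9, MRPS12, ING1, WDR55, ZMAT2 and AC011455.2 were named as genes that overlap members. All of these were named after their values were seen. Alternatives were upper-quartile and RLE factors, no filter, the replicate block, limma-voom 3.58.1, a stricter filter (1 CPM or more in 2 libraries and a mean count of 10 or more), DESeq2 1.42.0, no robust shrinkage, thinned KO counts, a threshold of 0.01 and each library left out. On simulated counts at these library sizes (17334 genes tested), the edgeR fit found, among 50 genes per size, 19 with a 1.2-fold change, 36 with 1.5-fold, 41 with 2-fold and 47 with 4-fold. In that simulation 17142 genes were unchanged and all genes had the same dispersion, whereas 76.2% of the genes tested were called in the data. The numbers found there thus check the fit and do not give its power in this comparison. Near copies were sought with BLAST 2.17.0 against GENCODE transcripts. At 85% identity over 20% of the transcript, GARS, KARS, NARS, RARS and SARS2 had a copy. None of these copies held more than 1 count in a library. For AC011455.2, the copy of SARS2 at 100% identity, 0 estimated counts do not show that it gave no reads. Some genes of these lists are counted but not reported singly here.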

Additional observations from a re-analysis of the deposited data

How the results depend on the processing

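Each result was recomputed under 14 alternatives. The count of cytosolic genes higher in KO stayed between 17 and 20 (18 as reported). Scalings and filters shift all genes alike and cancel in the gap between the medians, so they do not test it; leaving out 1 library gave a gap of 0.57 to 0.63, and thinned KO counts 0.58. Upper-quartile factors shift all genes by -0.13. With them 2 cytosolic genes (MARS and WARS) were lower, 4 mitochondrial genes were higher, the cytosolic median was 0.59 and the mitochondrial one -0.0078. They also gave 40.5% of all called genes as higher, against 47.7% with TMM. DESeq2 and thinned KO counts each called 5 mitochondrial genes higher. Cytosolic medians were 0.80 with no filter, 0.66 with the stricter filter and 0.67 with thinning; the mitochondrial medians were 0.21, 0.068 and 0.089. Leaving out 1 library gave 5 to 8 higher mitochondrial genes (5 without control replicate 2), cytosolic medians of 0.69 to 0.74 and mitochondrial medians of 0.086 to 0.16; the lone library of an arm is then assumed to vary like the other group. The causes were not tested.

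Of 504 values for single members, 457 kept direction and side of the threshold, 26 lost a call (IARS, AARS2, EARS2, FARS2, WARS2 and YARS2), 3 gained one and 18 turned sign, all in 7 genes without a call. With upper-quartile factors the log2 fold changes were -0.10 in MARS, -0.092 in WARS, -0.070 in LARS2, -0.12 in MARS2 and -0.046 in PARS2. With the stricter filter they were -0.025 in MARS, -0.016 in WARS and -0.040 in MARS2, and with thinned KO counts -0.020 in MARS, -0.0035 in WARS and -0.0037 in LARS2. With no filter they were 0.075 in RARS2 and 0.071 in VARS2. Leaving out 1 library gave -0.047 to 0.091 in MARS2, -0.093 to 0.072 in RARS2 and -0.12 to 0.073 in VARS2.

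Labels give both groups replicate numbers 1 and 2. Same-numbered libraries did not deviate together (correlation 0.00686 over 17885 genes). With 2 libraries a group this cannot show whether they were grown or prepared together, which the labels do not say. With the replicate block, 18 cytosolic genes were higher and 0 lower, and 8 mitochondrial genes were higher and 3 lower. Over all genes 6365 were higher and 6922 lower, against 6506 and 7123 without it. Precision was lowest in WARS2 (88 to 142 counts a library, SE 0.17).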
